A study of Mus musculus with 6 samples.

Results

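The genes described here are 3 ERBB receptors (Egfr, Erbb2 and Erbb3) and 7 ligands of the EGF family (Egf, Tgfa, Hbegf, Areg, Ereg, Btc and Nrg1) in RNA from mouse stomach. They were picked by gene symbol as a family, with earlier results of these data known, and all 10 were found among the 23550 symbols of the deposited table. The study compared 3 libraries from mice that received the soluble fibre Riclin by gavage, 20 mg per kg, with 3 libraries from mice that received saline. Gavage went on for 14 days in an experiment of 20 mice, and its purpose concerned the defence barrier of the gastric mucosa. Strain, genotype, sex and age of the mice, whether each library came from a separate animal, and whether these mice also received the ethanol of a second experiment do not appear in the labels. The p-values below therefore measure the spread between libraries.

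ERBB receptors are tyrosine kinases of the cell surface that act as pairs. Egfr binds Egf, Tgfa, Areg, Hbegf, Ereg and Btc. Erbb3 binds the neuregulins, among them Nrg1, but has a weak kinase. Erbb2 has no known soluble ligand of its own and serves as the favoured partner of the others. The ligands are made as membrane-bound precursors and cut free by surface proteases, after which the receptors signal through the RAS to ERK and the PI3K to AKT routes. In the stomach this family is known for growth and repair of the mucosa and for restraint of acid secretion, and excess Tgfa in transgenic mice enlarges the surface mucous layer.

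The library totals implied by the deposited values ranged between 30884067 and 40050267 reads. Reads recovered in genes made up nearly all of these totals, so the number of reads sequenced is not known from them. The tissue label fitted the markers, since summed surface mucous markers (5 genes) reached 58117 to 82898 FPKM in Riclin and 61553 to 104993 FPKM in saline, where FPKM is fragments scaled to gene length and to library size. Summed parietal cell markers (6 genes) lay between 4207 and 5657 FPKM in Riclin and between 3155 and 4641 FPKM in saline. Riclin replicate 3 stood apart: its 12 summed pancreatic acinar markers came to 3.90 FPKM, with Cpa1, Amy2a5 and Spink1 at 0, against 65288 and 68688 FPKM in the other Riclin libraries and 24696 to 101611 FPKM in saline. Where leaving it out turned the direction of a fold change given here or moved it by over 1.5 times, the value without it is given as well.

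The 2 starts shown here belong to Areg, the tested ligand with the largest log2 fold change between the groups, and Erbb2, the receptor whose groups lay farthest apart relative to their spread. Each runs from 250 bases before to 50 bases after the start of the gene, 5′ to 3′ on the plus strand, from RefSeq on GRCm38.p6, the assembly that mm10 names. Areg occupies chr5:91139349-91139648 and Erbb2 chr11:98412234-98412533, and capitals mark matches to the motifs searched on both strands.
Areg: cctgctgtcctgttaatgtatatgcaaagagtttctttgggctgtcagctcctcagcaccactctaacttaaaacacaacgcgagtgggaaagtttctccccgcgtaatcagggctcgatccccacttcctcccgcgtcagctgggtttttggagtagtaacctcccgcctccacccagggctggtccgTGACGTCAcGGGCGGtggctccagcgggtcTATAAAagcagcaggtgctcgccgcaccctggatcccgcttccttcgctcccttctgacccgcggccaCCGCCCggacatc
Erbb2: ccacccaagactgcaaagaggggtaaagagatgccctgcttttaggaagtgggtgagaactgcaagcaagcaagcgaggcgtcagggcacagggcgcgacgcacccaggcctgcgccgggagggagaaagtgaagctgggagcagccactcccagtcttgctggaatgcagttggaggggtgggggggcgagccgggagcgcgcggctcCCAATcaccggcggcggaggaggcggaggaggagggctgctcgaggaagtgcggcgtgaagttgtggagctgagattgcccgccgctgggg

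The motifs were the cyclic AMP response element TGACGTCA, the TATA box TATAAA, the GC box GGGCGG and the CCAAT box CCAAT, which do not overlap one another in these windows. In the Areg window the first of these begins at position -61 relative to the start, the TATA box at -31, and GC boxes at -52 and, on the other strand, at 37. The Erbb2 window holds a CCAAT box at -41 and no match to the other 3. Of 32851 promoter windows of this length, 1.79% hold the cyclic AMP response element, 13.6% the TATA box, 35.7% the GC box and 37.4% the CCAAT box. GC content is 59.3% in the Areg window and 66.0% in the Erbb2 window, against a median of 52.7%. These matches describe letters and were not tied to the measurements.

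The family was led in saline stomachs by the ligand Areg and the receptor Erbb3. Areg averaged 21.4 ± 6.22 FPKM in Riclin and 29.3 ± 0.469 FPKM in saline, and Erbb3 averaged 21.0 ± 1.14 FPKM in Riclin and 23.9 ± 5.13 FPKM in saline (SD, n = 3 each, as for all means here). Their library ranges overlapped in both groups, so the order between them was not set. Erbb2 came next at 16.4 ± 0.148 FPKM in Riclin and 14.2 ± 0.355 FPKM in saline, apart from Erbb3 above it and from Tgfa below it in both groups. Tgfa averaged 7.47 ± 1.01 FPKM in Riclin and 8.41 ± 0.242 FPKM in saline. Btc averaged 7.32 ± 0.930 FPKM in Riclin and 5.93 ± 1.18 FPKM in saline. Tgfa and Btc overlapped in Riclin and stood apart in saline. Hbegf, Egf and Egfr followed, each overlapping its neighbour in this order in both groups, and Ereg and Nrg1 were under 1 FPKM in every library.

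**Figure D1:**
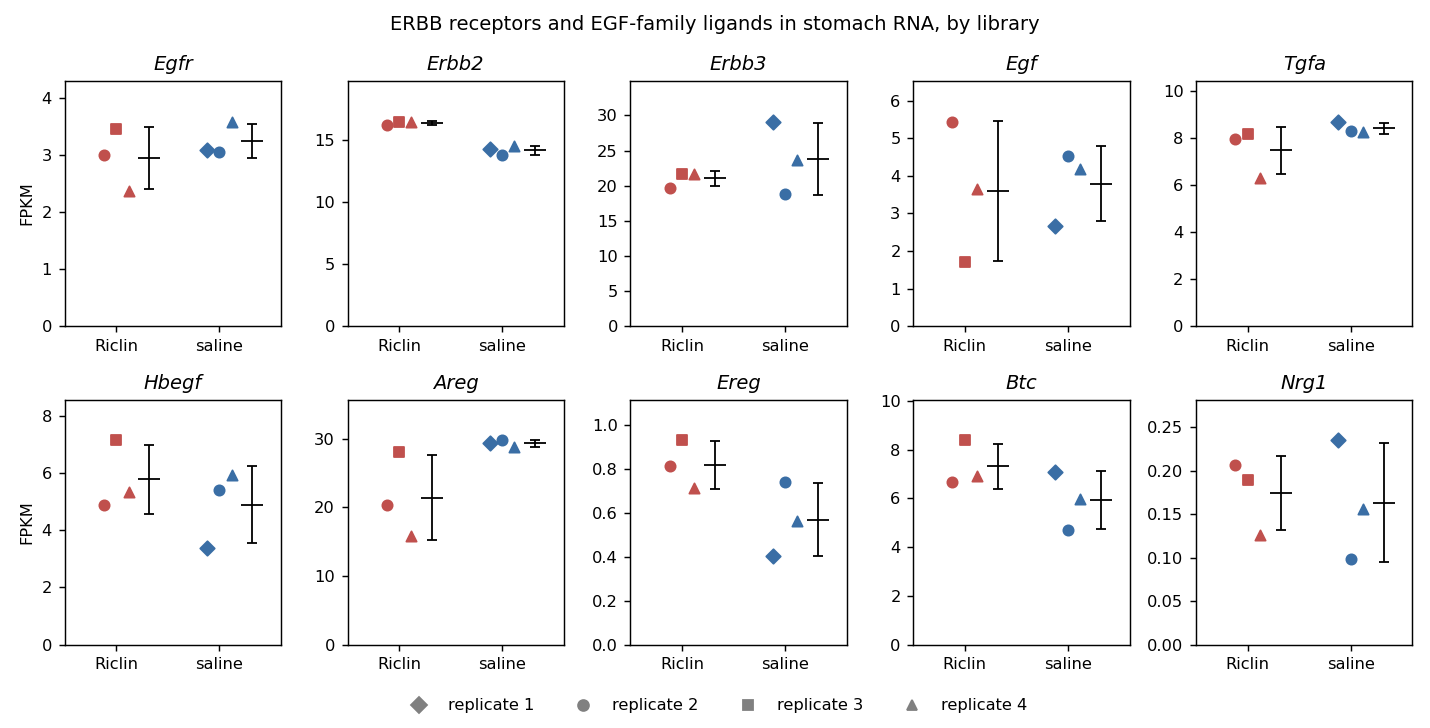
FPKM of each receptor and ligand by library, with Riclin left of saline, 1 marker shape per replicate number, and the mean and SD beside the points. Erbb2 points form 2 separate tight groups, 16.2 to 16.5 FPKM in Riclin and 13.8 to 14.5 FPKM in saline, while Areg spreads from 15.8 to 28.1 FPKM in Riclin and stays within 28.8 to 29.8 FPKM in saline.

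Of the 10 genes, 8 had at least 1 FPKM in at least 3 libraries and were tested among 11738 genes with limma, and none passed a Benjamini-Hochberg adjusted p of 0.05. Over all genes tested the share called was likewise 0.00%. An unadjusted p under 0.05 was found for 1 of the 8, Areg, against 5.90% of all genes tested in either direction, 4.07% higher and 1.83% lower in Riclin. By limma's voom on reads recovered from the values, 0 of the 8 passed the adjusted threshold and 1 had an unadjusted p under 0.05. The Riclin and saline libraries did not overlap in 3 of the 8, Erbb2 with Riclin higher and Areg and Tgfa with Riclin lower, against 11.2% of all genes tested, 8.14% with Riclin higher and 3.02% with Riclin lower. Log2 fold changes, on the log2(FPKM + 1) scale, had a median of -0.12 over the 8 genes and 0.04 over all genes tested, with 3 of the 8 above and 5 below 0.

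Among the receptors, Erbb2, the shared partner, was the 1 whose groups did not overlap. It measured 16.2, 16.4 and 16.5 FPKM in Riclin replicates 2, 3 and 4, against 14.3, 13.8 and 14.5 FPKM in saline replicates 1, 2 and 4. Every Riclin library lay above every saline library, and the means differed by 1.15-fold. The lowest Riclin value, 16.2 FPKM from 3014 reads, had a 95% exact Poisson interval of 15.6 to 16.8 FPKM, above that of the highest saline value (13.9 to 15.1 FPKM from 2236 reads). These intervals cover counting error only. The log2 fold change was 0.19 (SE 0.087, 95% interval -0.009 to 0.40, limma adjusted p = 0.820, unadjusted p = 0.0585). The groups stayed apart, but by less, after median-of-ratios scaling. There its log2 fold change was 0.15 (limma unadjusted p = 0.0958) and the median over all genes -0.004. That scaling divided Riclin replicate 3 by 1.0866 and saline replicate 4 by 0.9687, which drew their values together. The Poisson intervals above are of unscaled values, and those of scaled values were not computed. The gene lies on chromosome 11 from 98412470 to 98437716 on the plus strand.

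Erbb3, the neuregulin receptor, measured 19.7, 21.7 and 21.6 FPKM in Riclin replicates 2, 3 and 4, against 29.1, 18.8 and 23.6 FPKM in saline replicates 1, 2 and 4. The groups overlapped, and the saline libraries held both the lowest and the highest value. Its log2 fold change was -0.16 (SE 0.156, 95% interval -0.52 to 0.21, limma adjusted p = 0.906), which was -0.007 without saline replicate 1 and -0.31 without saline replicate 2. Erbb3 exceeded Erbb2 in every library, by 1.22 to 1.32 times in Riclin and by 1.37 to 2.04 times in saline.

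Egfr, the receptor of the EGF-type ligands, was the least abundant of the receptors tested. It measured 3.00, 3.46 and 2.37 FPKM in Riclin replicates 2, 3 and 4, against 3.08, 3.05 and 3.57 FPKM in saline replicates 1, 2 and 4. The groups overlapped, with the lowest value in Riclin replicate 4, and the log2 fold change was -0.11 (SE 0.128, 95% interval -0.41 to 0.19, limma adjusted p = 0.919), which was -0.20 without Riclin replicate 3, -0.002 without Riclin replicate 4 and -0.054 without saline replicate 4. Erbb2 exceeded Egfr 5.40, 4.75 and 6.96 times in Riclin replicates 2, 3 and 4, against 4.64, 4.52 and 4.05 times in saline replicates 1, 2 and 4. Every Riclin ratio was above every saline ratio, but Riclin replicate 3 (4.75) and saline replicate 1 (4.64) lay close. Erbb2 alone already separated the groups, so this ratio is not a separate result. Neither its counting error nor how often ratios of other gene pairs separate these groups was computed. Egfr lies on chromosome 11 from 16752203 to 16918158, and Erbb3 on chromosome 10 from 128567523 to 128589652.

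Among the ligands, Areg, amphiregulin, a lower-affinity ligand of Egfr, measured 20.3, 28.1 and 15.8 FPKM in Riclin replicates 2, 3 and 4, against 29.3, 29.8 and 28.8 FPKM in saline replicates 1, 2 and 4. Saline libraries agreed closely, while Riclin replicates 2 and 4 lay well below them and Riclin replicate 3 just below. The 95% exact Poisson interval of Riclin replicate 3 (26.6 to 29.6 FPKM from 1368 reads) overlapped those of all saline libraries (27.1 to 31.4 FPKM at their widest). Those of Riclin replicates 2 and 4 (19.0 to 21.7 and 14.7 to 17.0 FPKM) did not. The log2 fold change was -0.47 (SE 0.188, 95% interval -0.91 to -0.036, limma adjusted p = 0.806, unadjusted p = 0.0374), a 1.37-fold difference in mean FPKM. Without Riclin replicate 3, the library with few acinar transcripts, it was -0.68 (limma unadjusted p = 0.00129 and adjusted p = 0.352). With Riclin replicate 4 left out instead, the value was -0.28 (limma unadjusted p = 0.122 and adjusted p = 0.964).

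Markers of mucous cells moved with Areg in part. All 5 surface mucous markers had lower log2 means in Riclin. The groups did not overlap for Krt20 (log2 fold change -0.94). Muc5ac, Tff1, Gkn1 and Gkn2 overlapped, with log2 fold changes between -0.22 and -0.15. The summed level of the 5 in Riclin replicates 2, 3 and 4 was 76126, 82898 and 58117 FPKM, in the same order as Areg. In saline replicates 1, 2 and 4 the sum was 104993, 80548 and 61553 FPKM, and saline replicate 4, near the Riclin low in these markers, had Areg at 28.8 FPKM. None of the 5 markers was at 0 in any library. All 4 mucous neck markers were lower in Riclin too (median log2 fold change -0.67), at a sum of 3505, 6149 and 2274 FPKM in Riclin replicates 2, 3 and 4, against 5097, 6072 and 13435 FPKM in saline replicates 1, 2 and 4, with none at 0. The 6 intestinal absorptive markers came to 36.6, 65.9 and 20.0 FPKM in Riclin replicates 2, 3 and 4. In saline replicates 1, 2 and 4 they came to 56.8, 49.2 and 139.3 FPKM. All 3 tested members were lower in Riclin. Sis and Cdx1 were above 0 in saline replicate 4 alone. Alpi reached 41.95 FPKM in that library, against 1.84 and 1.72 FPKM in saline replicates 1 and 2. Vil1 made up most of the Riclin sums, at 26.55, 39.18 and 17.16 FPKM. Within Riclin all 3 sums had the order of Areg, and within saline none of them did. Squamous forestomach markers, described below, had that order within Riclin as well (380.9, 411.6 and 296.1 FPKM in replicates 2, 3 and 4). All 8 of those tested were higher in Riclin, opposite to Areg. An order over 3 libraries is easily matched. Most of the mucous neck sum was Tff2, at 3139, 5414 and 1885 FPKM in Riclin replicates 2, 3 and 4. Muc6 (23.5, 34.7 and 40.3 FPKM) and Aqp5 (9.31, 10.8 and 16.7 FPKM) were instead highest in Riclin replicate 4, where Areg was lowest. The part of these markers in the Areg difference was not tested. In these bulk libraries fewer cells of a type and less RNA per cell cannot be told apart.

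Areg, Ereg, Btc and a further ligand gene, Epgn, lie along a stretch of chromosome 5, and between the groups they shared no direction. The Riclin mean was lower for Areg and higher for Ereg and Btc. For Epgn the means were 0.1456 FPKM in Riclin and 0.1485 FPKM in saline. Within Riclin each of these genes was highest in replicate 3. Within saline the highest was replicate 2 for Areg and Ereg, replicate 1 for Btc and replicate 4 for Epgn. On GRCm38 Ereg runs from 91074622 to 91093646, Areg from 91139599 to 91148432 and Btc from 91357261 to 91402994, with 45952 bases between Ereg and Areg and 208828 bases between Areg and Btc. Btc, betacellulin, a ligand of Egfr and Erbb4, measured 6.67, 8.39 and 6.90 FPKM in Riclin replicates 2, 3 and 4, against 7.08, 4.72 and 5.99 FPKM in saline replicates 1, 2 and 4. The groups overlapped through saline replicate 1, and they stood apart, Riclin higher, after median-of-ratios scaling. The log2 fold change of Btc was 0.27 (SE 0.149, 95% interval -0.074 to 0.62, limma adjusted p = 0.841), and 0.14 without saline replicate 2. Areg exceeded Btc 3.04, 3.35 and 2.29 times in Riclin replicates 2, 3 and 4, against 4.14, 6.31 and 4.81 times in saline replicates 1, 2 and 4, without overlap. The ratio of Areg to Tgfa was 2.56, 3.44 and 2.51 in Riclin replicates 2, 3 and 4, against 3.38, 3.59 and 3.50 in saline replicates 1, 2 and 4, with overlap. How often ratios of other gene pairs separate these groups was not computed.

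Ereg, epiregulin, measured 0.811, 0.930 and 0.712 FPKM in Riclin replicates 2, 3 and 4, against 0.404, 0.738 and 0.564 FPKM in saline replicates 1, 2 and 4. It rested on 65 to 154 reads per library and was under the level for testing. The means differed by 1.44-fold, Riclin higher, and the groups overlapped only through saline replicate 2 and Riclin replicate 4. An exact two-sided permutation test on the log2(FPKM + 1) scale gave p = 0.2, where 0.1 is the smallest that 3 against 3 can give.

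Tgfa, the transforming growth factor alpha made in the gastric mucosa itself, measured 7.94, 8.16 and 6.31 FPKM in Riclin replicates 2, 3 and 4, against 8.69, 8.29 and 8.24 FPKM in saline replicates 1, 2 and 4. Every Riclin library lay below every saline library, but the gap between Riclin replicate 3 and saline replicate 4 was smaller than the counting error of either (95% exact Poisson intervals of 7.76 to 8.58 and 7.79 to 8.72 FPKM). The log2 fold change was -0.16 (SE 0.113, 95% interval -0.42 to 0.10, limma adjusted p = 0.873), and -0.055 without Riclin replicate 4. The gene lies on chromosome 6 from 86195223 to 86275719. As a share of the summed FPKM of the 7 ligands, Areg made up 43.9, 51.5 and 40.7% in Riclin replicates 2, 3 and 4, against 56.7, 55.6 and 53.5% in saline replicates 1, 2 and 4. Areg is itself the largest part of that sum, so the share is not a result separate from the Areg difference.

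Hbegf, a heparin-binding ligand of Egfr and Erbb4, measured 4.87, 7.14 and 5.33 FPKM in Riclin replicates 2, 3 and 4, against 3.37, 5.39 and 5.92 FPKM in saline replicates 1, 2 and 4. The groups overlapped, with the lowest value in saline replicate 1. Its log2 fold change of 0.22 (SE 0.199, 95% interval -0.25 to 0.68, limma adjusted p = 0.892) was 0.014 without saline replicate 1, 0.077 without Riclin replicate 3 and 0.35 without saline replicate 4. Squamous markers of the forestomach moved with it in some libraries. All 8 that were tested of 11 were higher in Riclin, and the sum of the 11 was 380.9, 411.6 and 296.1 FPKM in Riclin replicates 2, 3 and 4, against 75.9, 335.4 and 233.7 FPKM in saline replicates 1, 2 and 4. None of the 11 markers was at 0. Saline replicate 1 was lowest in the marker sum, in Hbegf and in Ereg, and Riclin replicate 3 was highest in all 3. Hbegf and the sum parted in saline replicate 4, second highest in Hbegf and second lowest in the sum, and in Riclin replicate 2, second lowest in Hbegf and second highest in the sum. The part of forestomach tissue in these values was not tested.

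Egf, the founding ligand, measured 5.44, 1.69 and 3.65 FPKM in Riclin replicates 2, 3 and 4, against 2.67, 4.53 and 4.19 FPKM in saline replicates 1, 2 and 4. Riclin libraries held both the highest and the lowest value, and the 95% exact Poisson intervals of these (5.11 to 5.80 FPKM and 1.52 to 1.89 FPKM) lay far apart. The lowest Egf values fell in Riclin replicate 3 and saline replicate 1, the libraries lowest in acinar markers, whose sums of 3.90 and 24696 FPKM compare with 65288 to 101611 FPKM in the other 4. Egf in Riclin replicate 3 was 31.1% of its highest library, with acinar markers there at 0.00384% of theirs. Egf and the markers parted elsewhere, since Egf was highest in Riclin replicate 2, with the markers at 67.6%. Saline replicates 2 and 4 had the markers at 100 and 96.1% and Egf at 83.2 and 77%. The log2 fold change was -0.13 (SE 0.309, 95% interval -0.84 to 0.59, limma adjusted p = 0.963), 0.21 without Riclin replicate 3 and between -0.42 and -0.014 with any other library left out. The part of pancreatic RNA in the Egf values was not tested. Egf lies on chromosome 3 from 129677565 to 129755316 on the minus strand.

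**Figure D2:**
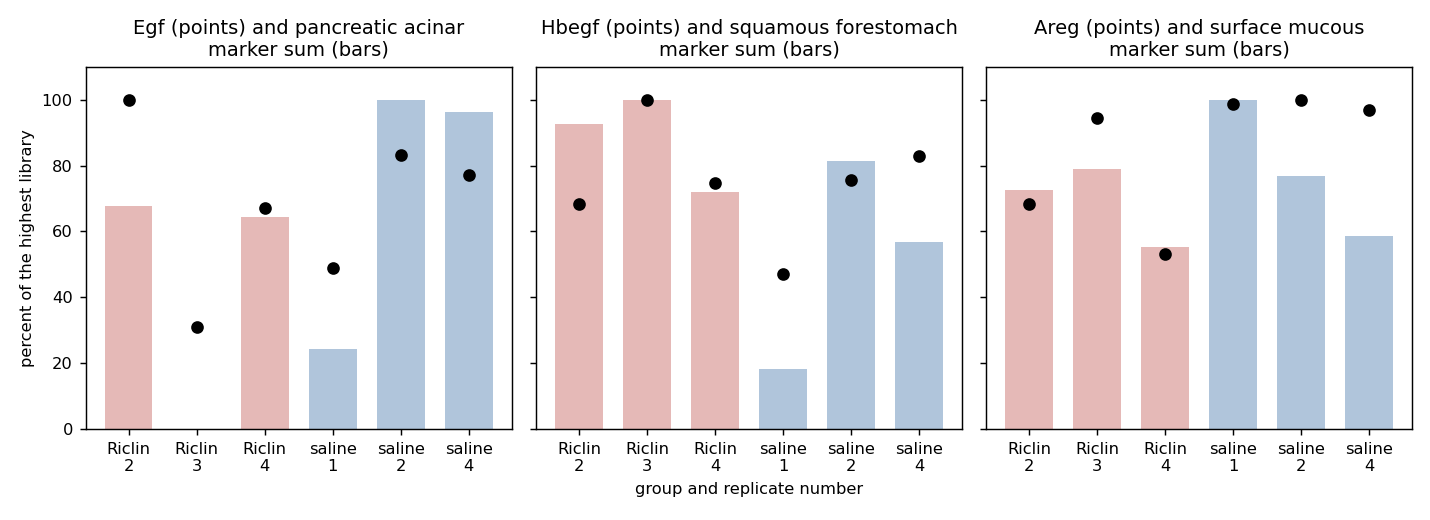
Egf, Hbegf and Areg (points) beside summed markers of pancreatic acinar, forestomach squamous and surface mucous cells (bars) in each library, each as a percentage of its highest library, with red bars for Riclin and blue bars for saline. Egf is lowest, at 31.1% of its highest library, where the acinar bar is at 0.00384%, and Hbegf is lowest, at 47.2%, where the squamous bar is lowest, at 18.4%. Points and bars part in other libraries. Egf is highest in Riclin replicate 2, where the acinar bar is at 67.6%. Hbegf is at 82.9% in saline replicate 4, where the squamous bar is at 56.8%.

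Nrg1, neuregulin 1, the ligand of Erbb3 and Erbb4, measured 0.207, 0.189 and 0.126 FPKM in Riclin replicates 2, 3 and 4, against 0.235, 0.0981 and 0.156 FPKM in saline replicates 1, 2 and 4. The groups overlapped, with both extremes in saline (exact two-sided permutation p = 0.8). These values stand on 82 to 212 reads divided by a gene length of 23207 bases as implied by the values, where the exons of Nrg1 in GENCODE M21 cover 10351 bases. The FPKM of Nrg1 relative to the other ligands depends on that length. Implied lengths were below the exon bases for Egf (4803 against 11275), Egfr (6422 against 11326), Hbegf (2375 against 4834), Btc (2876 against 4520) and Tgfa (4748 against 6490). For Areg both were 1215. The order of levels and the size of ratios between genes given above depend on these lengths too.

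**Figure D3:**
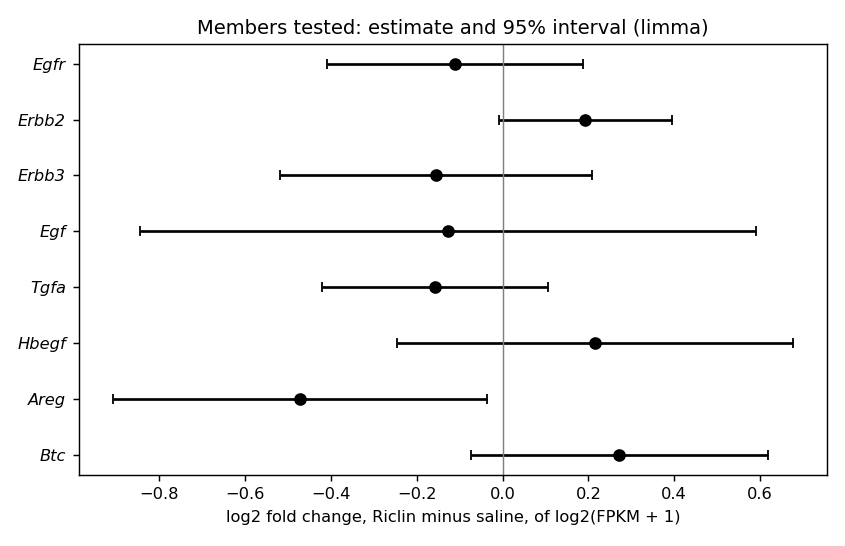
Log2 fold change of each tested receptor and ligand, Riclin minus saline on the log2(FPKM + 1) scale, with the 95% interval of the limma fit. The interval of Areg, -0.91 to -0.036, lies below 0, that of Erbb2 reaches -0.009, and the other 6 span 0 more widely.

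The rest of the ERBB pathway was read in 77 genes, of which 66 were tested and 0 passed the adjusted threshold by limma. An unadjusted p under 0.05 was found for 3 of the 66 (2 higher and 1 lower in Riclin), against 5.90% of all genes, and by voom none passed the adjusted threshold. The groups did not overlap in 8 genes with Riclin higher and 1 with Riclin lower, against 8.14% and 3.02% of all genes tested. Other family members were near absent: Erbb4, the remaining receptor, reached at most 0.0103 FPKM, and the ligands Epgn, Nrg2, Nrg3 and Nrg4 at most 0.399 FPKM in any library. With Erbb4 at that level, Egfr, Erbb2 and Erbb3 made up nearly all of the receptor FPKM measured.

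Proteases and regulators that release ligands had a median log2 fold change of 0.01 over 7 tested genes, 4 higher and 3 lower. Adam17, the main sheddase of Areg, Tgfa, Hbegf and Ereg, measured 11.1, 11.4 and 11.6 FPKM in Riclin replicates 2, 3 and 4, against 15.0, 9.75 and 14.2 FPKM in saline replicates 1, 2 and 4. The saline libraries lay on both sides of the Riclin ones (log2 fold change -0.16, SE 0.155). Leaving out saline replicates 1, 2 and 4 in turn gave -0.047, -0.33 and -0.084. The rhomboid protease Rhbdl2 averaged 3.99 ± 1.07 FPKM in Riclin and 5.67 ± 1.24 FPKM in saline, and Timp3, an inhibitor of Adam17, 16.6 ± 1.29 FPKM in Riclin and 14.7 ± 1.05 FPKM in saline, with overlap in both.

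Adaptors and kinases downstream had a median of 0.065 over 28 genes, 23 higher and 5 lower. Over all 11738 genes tested the median was 0.04, with 7195 higher and 4543 lower. The groups did not overlap in 4 of the 28, all with Riclin higher, against 8.14% of all genes tested. The smallest p values included those of the kinase Akt2 (21.3 ± 2.14 FPKM in Riclin and 17.8 ± 1.55 FPKM in saline) and the RAS exchange factor Sos2 (4.97 ± 0.555 FPKM in Riclin and 4.05 ± 0.531 FPKM in saline). The limma adjusted p was 0.823 for each, and their groups overlapped.

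Feedback inhibitors and turnover genes had a median of 0.046 over 18 tested genes, and Dusp6 stood out among them. Dusp6, a phosphatase that is induced by ERK and switches it off, measured 10.7, 13.5 and 11.6 FPKM in Riclin replicates 2, 3 and 4, against 8.40, 8.30 and 8.01 FPKM in saline replicates 1, 2 and 4. The groups stood apart by 1.45-fold in mean FPKM (log2 fold change 0.48, SE 0.107, limma adjusted p = 0.614, unadjusted p = 0.0023). Lrig1, which promotes the loss of ERBB receptors from the surface, averaged 7.36 ± 0.511 FPKM in Riclin and 6.22 ± 0.375 FPKM in saline, also without overlap (log2 fold change 0.21, SE 0.097, adjusted p = 0.820). Dusp5, a nuclear ERK phosphatase, went with Areg instead, at 11.5, 15.1 and 8.36 FPKM in Riclin replicates 2, 3 and 4 against 14.5, 16.8 and 13.8 FPKM in saline replicates 1, 2 and 4 (log2 fold change -0.37, SE 0.192, limma adjusted p = 0.831). That value was -0.56 without Riclin replicate 3 and -0.17 without Riclin replicate 4.

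Transcripts that ERK signalling induces did not share a direction, with 6 higher and 7 lower among 13 tested and a median of -0.010. Etv5, an ETS transcription factor, had the smallest p of the pathway. It measured 3.96, 4.85 and 3.38 FPKM in Riclin replicates 2, 3 and 4, against 6.75, 6.83 and 6.74 FPKM in saline replicates 1, 2 and 4. All Riclin libraries lay below the closely spaced saline libraries, by 1.67-fold in mean FPKM (log2 fold change -0.63, SE 0.121, limma adjusted p = 0.424, unadjusted p = 9.5e-04). Myc, a growth regulator, lay the other way, at 10.1, 9.86 and 12.4 FPKM in Riclin replicates 2, 3 and 4 against 8.87, 7.73 and 7.72 FPKM in saline replicates 1, 2 and 4 (log2 fold change 0.37, SE 0.118, limma adjusted p = 0.774). Phlda1 averaged 47.5 ± 9.84 FPKM in Riclin and 37.8 ± 4.31 FPKM in saline, with overlap (log2 fold change 0.31, or 0.15 with Riclin replicate 3 left out).

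**Figure D4:**
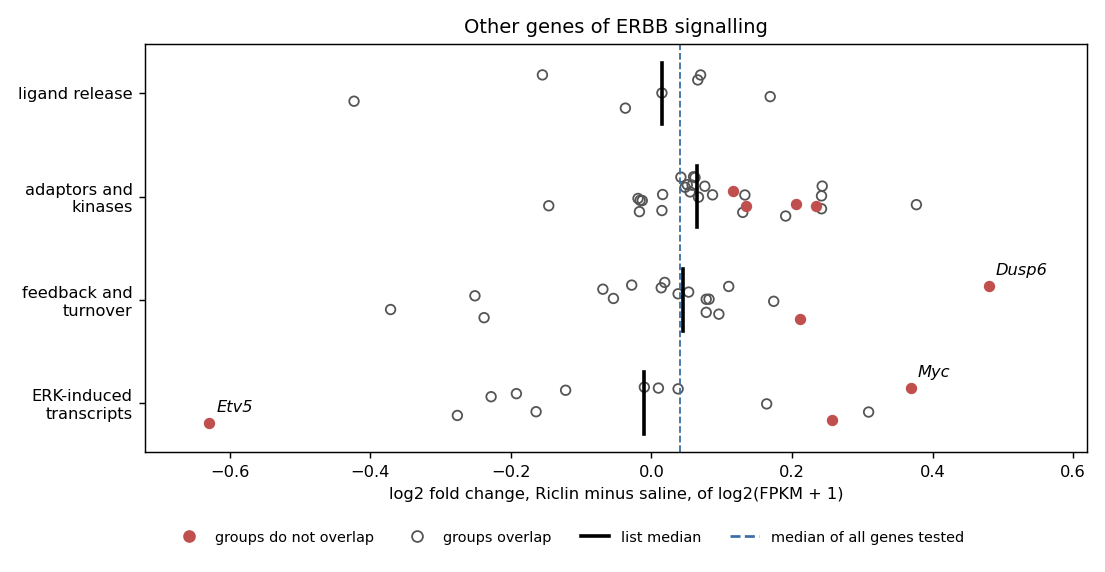
Log2 fold change of 66 tested pathway genes, Riclin minus saline on the log2(FPKM + 1) scale, by list, with filled points where the groups do not overlap, black bars at list medians and a dashed line at the median of all genes tested (0.04). Etv5 at -0.63 and Dusp6 at 0.48 lie at opposite ends, and the list medians, between -0.010 and 0.065, lie near the dashed line.

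For likeness across libraries, centred log2(FPKM + 1) profiles over the 6 libraries were compared by their root mean square distance. The tested gene nearest to Areg was Mt3, a metallothionein, at a distance of 0.032 against a spread of 0.329 for Areg itself, followed by Dusp5 at 0.089. Mt3 measured 1.65, 2.46 and 1.07 FPKM in Riclin replicates 2, 3 and 4, against 2.77, 2.84 and 2.53 FPKM in saline replicates 1, 2 and 4. The log2(FPKM + 1) scale understates changes of low genes such as Mt3, so its short distance to Areg depends on that scale. In FPKM the relative change between Riclin replicate 4 and saline replicate 2 was larger for Mt3 than for Areg (15.8 and 29.8 FPKM). Distances without the added 1 were not computed. Nearest to Erbb2 (spread 0.099) were the kinase Mapk7 at 0.018 and Bicral at 0.022. Both lay well below Erbb2 in FPKM, so the scale understates their changes more than those of Erbb2. Nearest to Erbb3 (spread 0.195) were Mlph at 0.041 and the neuropeptide Vip at 0.045, and nearest to Egfr (spread 0.142) were Axin2, a Wnt target, at 0.024 and Smc4 at 0.027. Near Egf (spread 0.416) was Serpini1 at 0.136. Tgfa (spread 0.132) was nearest to Tpst1 at 0.033 and Gnai1 at 0.034, Hbegf (spread 0.272) to Gon7 at 0.1005 and Acad12 at 0.103, and Btc (spread 0.218) to the endodermal transcription factor Foxa1 at 0.036 and to Nras at 0.048. With 6 libraries and 11738 genes, near profiles can be found for any gene.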

How the data were processed

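Stomach RNA was sequenced in 6 libraries made with the VAHTS Universal V6 kit from TRIzol extracts, per the labels' protocols. Build mm10 and Bowtie2 are named in the submitters' processing notes with no role. The sources used here do not say how reads were counted, on which annotation or with what use of strand. Values were deposited by the authors as FPKM for 23550 symbols, and groups follow each sample's treatment label. Reads behind the FPKM were recovered as whole numbers for 23548 genes within a relative tolerance of 1e-09. Riclin was compared with saline on log2(FPKM + 1), which understates changes of low genes, by limma 3.58.1 (R 4.3.3) with an intensity trend and no covariate, two-sided, over 11738 genes with FPKM of at least 1 in at least 3 libraries, with Benjamini-Hochberg adjustment at 0.05. The fit was tested on simulated data. Members are all 10 symbols; pathway genes named are the 3 with the smallest p in each list (and any past the threshold), and neighbours are the 2 nearest profiles, leaving out predicted symbols; 2 genes that these rules chose are not reported here. Genes, lists and tests were chosen with earlier results of these data known. Positions are from GENCODE M21 on GRCm38. RefSeq promoters were matched for 6 of the 10 symbols. As alternatives, the pseudocount was set to 0.1, the filter was dropped or raised to FPKM 5, libraries were rescaled by median of ratios, the prior was made robust, replicate number entered as a block, libraries were left out in turn, and recovered reads were fitted with limma's voom.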

Additional observations from a re-analysis of the deposited data

How the results depend on the processing

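None of the 8 tested receptors and ligands (10 with no filter) and none of the 66 pathway genes passed an adjusted p of 0.05 in any of the 13 alternatives, by limma or limma's voom. Over all genes the count of 0 was 2 with a robust variance prior, and 0 to 1 with each library left out; none of these genes belongs to the family or the pathway lists. The sign of Egf and Hbegf was not stable: with the replicate block their log2 fold changes were 0.031 and -0.125, and with 1 library left out Egf ranged from -0.42 to 0.21. The cause was not tested. The other 6 kept their sign in every alternative run, Areg from -0.68 to -0.28, Erbb2 from 0.15 to 0.21 and Btc from 0.14 to 0.39. For Egfr, Erbb3 and Tgfa the sign was barely kept, with values as near 0 as -0.002, -0.007 and -0.055. The lowest limma adjusted p of any member was 0.352, for Areg without Riclin replicate 3. An unadjusted p under 0.05 for Areg was lost with no filter (0.0556) and without each library except Riclin replicate 3 (0.0702 to 0.122). The unadjusted p of Erbb2 was 0.0123 with no filter and 0.0541 to 0.207 otherwise. Replicate numbers are shared by only 2 pairs of libraries and the labels do not say that they mark pairs; deviations from the group means correlated at 0.222 for number 2 and 0.011 for number 4 across genes. The block left the count of adjusted calls at 0 and gave an unadjusted p of 0.00442 for Areg. Ereg and Nrg1 rest on 65 to 154 and 82 to 212 reads, and within saline their libraries also differed by more than the 95% exact Poisson intervals (0.404 to 0.738 FPKM for Ereg and 0.0981 to 0.235 FPKM for Nrg1 between the lowest and highest library).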
